A study of Mus musculus with 8 samples.

Results

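Clone 12, 1 of 4 clonal lines of p53-knockout mouse bone marrow-derived mesenchymal stem cells, was compared with clones 2 and 4. Of the 8 libraries of the series, 6 entered the comparison: 2 of clone 12 and 4 of clones 2 and 4. They were chosen by the clone number in the sample labels, and clone 8 was not used. In each line, 1 culture had received a control retrovirus that carries luciferase (Luc), and 1 had received a retrovirus that carries cFos, the product of the gene Fos and a part of the AP-1 transcription factor. The p53 knockout is shared by all lines, controls included, so nothing here compares cells with and without p53. The cells were kept below 20 passages in MesenCult medium, and polyadenylated RNA was sequenced. Each line descends from 1 clone and each pair of clone and virus has 1 library. The p-values below therefore measure how far these 2 libraries lie from the other 4, and not how clonal lines differ in general. The labels name neither the deleted part of Trp53 nor the promoter of the retrovirus.

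Mesenchymal stem cells of the bone marrow are stromal progenitors that can give rise to bone, cartilage and fat, and that support blood formation through secreted factors such as Cxcl12 and Kitl. They are recognised by surface proteins that include Thy1 (CD90), Nt5e (CD73) and Eng (CD105). Clones grown from such cultures are known to differ in lineage bias. Levels are given as FPKM, fragments scaled to the length of the transcript and to the mapped fragments of the library, a scale on which genes can be compared per length.

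Between 6.93 and 9.14 gigabases of sequence lay on transcripts in a library, and 11013 to 11124 genes per library reached 1 FPKM. Correlations across genes of the log2 values within an arm were 0.935 and 0.949 between clone 12 and clones 2 and 4 in Luc, and 0.954 and 0.956 in cFos, with 0.945 and 0.968 between clones 2 and 4. Of the defining markers of other cell types, several were near 0 in all 6 libraries: Ptprc (blood cells) reached 0.0718 FPKM, Pecam1 (endothelium) 0.0916, Epcam (epithelium) 0.367 and Myod1 (skeletal muscle) 0.142, and Sox10 (Schwann cells) was listed at 0. Between 3 and 8 genes of each of the other-cell-type lists were expressed enough to be tested, 3 of 22 blood and macrophage markers among them (Cd14, Cd34 and Hba-a1). Summed blood and macrophage markers were 8.41, 4.23 and 14.5 FPKM in Luc and 36.9, 148 and 45.5 in cFos for clones 2, 4 and 12. Summed epithelial markers, with most of the sum from the keratin gene Krt19, were 8.83, 30.8 and 8.33 FPKM in Luc and 36.2, 154 and 50.5 in cFos, and neural and Schwann markers 21.6, 40.3 and 36.6 in Luc and 59.6, 68.5 and 62.0 in cFos. Both sums were higher in cFos than in Luc in every line, and their part in the differences below was not tested. Fos was at 76.2, 41.1 and 43.5 FPKM in the Luc libraries of clones 2, 4 and 12 and at 589, 675 and 505 in the cFos libraries, so the transduced gene stood high in every cFos library. Sox9, a cartilage transcription factor, was at 6.55, 8.13 and 6.68 FPKM in Luc and 16.3, 15.0 and 15.4 in cFos in the same order of clones. Neither Fos (log2 difference -0.34, SE 0.25, limma adjusted p = 0.63) nor Sox9 (-0.07, SE 0.15, adjusted p = 0.88) passed the test between clone 12 and the other lines, and Trp53 was 0.00 apart (SE 0.16, adjusted p = 0.998).

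Which genes set clone 12 apart was tested over 11557 genes with limma on log2(FPKM + 0.5), with the virus arm as a covariate. At a Benjamini-Hochberg adjusted p under 0.05, 14 genes were higher in clone 12 (0.121% of those tested) and 8 were lower (0.0692%). All 22 lay beyond both other clones in both arms. With the clone as a replicate block, so that clones 2 and 4 have terms of their own, 27 genes were higher (0.234%) and 16 lower (0.138%), and all 22 were among them. In a fit with each clone on its own, 19 genes differed between clones 12 and 2 (0.164%) and 31 between clones 12 and 4 (0.268%), against 2 between clones 4 and 2 (0.0173%), 1 higher and 1 lower (0.00865% each). The counts rested on single libraries. Without the Luc library of clone 2 there were 36 higher and 20 lower, and without its cFos library 1 and 0. Leaving out the Luc library of clone 4 gave 0 and 0, and leaving out its cFos library 5 and 2. The fit without the Luc library of clone 12 called 0 and 2, and the fit without its cFos library 1 and 3. None of the 22 genes was called in more than 3 of these 6 fits. Without a call being asked for, 1674 genes (14.5%) were higher in clone 12 than in both other clones in both arms, and 2161 (18.7%) were lower; such a gene is described below as higher or lower in all 4 differences.

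Thy1 had the largest fitted difference of the genes called higher in clone 12. This gene, the CD90 antigen used to define mesenchymal stem cells (chromosome 9, 43851467 to 43856662, mm9), was at 21.9 FPKM in Luc and 23.8 in cFos of clone 12. In clone 2 it was at 0.672 and 0.142, and in clone 4 at 0.0916 and 0.398. Clones 2 and 4 thus held under 1 FPKM of Thy1 in all 4 libraries, and the fitted log2 difference was 4.88 (SE 0.33, limma adjusted p = 0.0129). Nt5e, the CD73 ecto-nucleotidase (chromosome 9, 88222447 to 88266927), was at 2.48 FPKM against 0.251 and 0.167 in Luc and at 7.94 against 1.21 and 0.930 in cFos, a log2 difference of 2.25 (SE 0.23, adjusted p = 0.0444). Both antigens were therefore higher in clone 12 in each arm. Itm2a, a membrane protein of cartilage and muscle precursors (chromosome X, 104592534 to 104598699), was the most abundant gene called higher, at 250 FPKM against 23.3 and 23.6 in Luc and at 108 against 17.8 and 10.6 in cFos. Its log2 difference was 3.16 (SE 0.23, adjusted p = 0.0129), and it was the gene that stayed called in 3 of the 6 fits with a library left out.

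Efna1, the membrane-bound ligand ephrin A1 (chromosome 3, 89075652 to 89084873), was 6.2-fold higher in clone 12 than the mean of the other lines in Luc and 3.24-fold higher in cFos. Igsf10, an immunoglobulin-domain protein of the matrix (chromosome 3, 59120657 to 59148178), was 5.96-fold and 4.86-fold higher. Tgfb3, a TGF-beta ligand (chromosome 12, 87397693 to 87419991), was at 72.3 FPKM against 28.4 and 27.6 in Luc and at 27.0 against 9.26 and 11.9 in cFos. Its level was higher in Luc than in cFos in every clone, while the distance of clone 12 from the others was alike in the arms, 2.58-fold and 2.56-fold. Brinp3, a secreted protein best known from the nervous system (chromosome 1, 148342796 to 148749602), was at 7.91 FPKM against 0.341 and 0.322 in Luc and at 22.4 against 1.29 and 2.27 in cFos. Its log2 difference was 3.35 (SE 0.23, adjusted p = 0.0129).

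The rest of the named higher genes act inside the cell or carry ions. Pygl, the liver isoform of glycogen phosphorylase (chromosome 12, 71291802 to 71328670), was 7.89-fold higher in Luc and 4.83-fold higher in cFos. Cth, the enzyme that makes cysteine from cystathionine (chromosome 3, 157557212 to 157588027), was at 14 FPKM against 3.11 and 2.52 in Luc and at 41.7 against 13.0 and 8.86 in cFos. All 3 lines had more Cth in cFos than in Luc, and clone 12 stood above both others in each arm. Kcnj2, an inward-rectifier potassium channel (chromosome 11, 110927478 to 110938139), was 15.2-fold and 15.9-fold higher in the 2 arms. Hspb2, a small heat shock protein of muscle (chromosome 9, 50559177 to 50560459), was 4.96-fold and 8.51-fold higher. Dpysl3, a cytoskeletal regulator of growing axons (chromosome 18, 43483881 to 43552985), was 5.15-fold and 3.35-fold higher. Scn3a, a sodium channel subunit at under 5 FPKM, and 1 transcript that the naming step matched to no symbol were the other genes called higher. The unmatched transcript (chromosome 7, 149761437 to 149764051) was at 23.1 FPKM against 2.46 and 1.28 in Luc and at 13.9 against 0.172 and 0.635 in cFos. Its log2 difference was 3.70 (SE 0.34, limma adjusted p = 0.0305). Its RefSeq name is of the noncoding kind, and the gene it belongs to was not looked up.

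**Figure D1:**
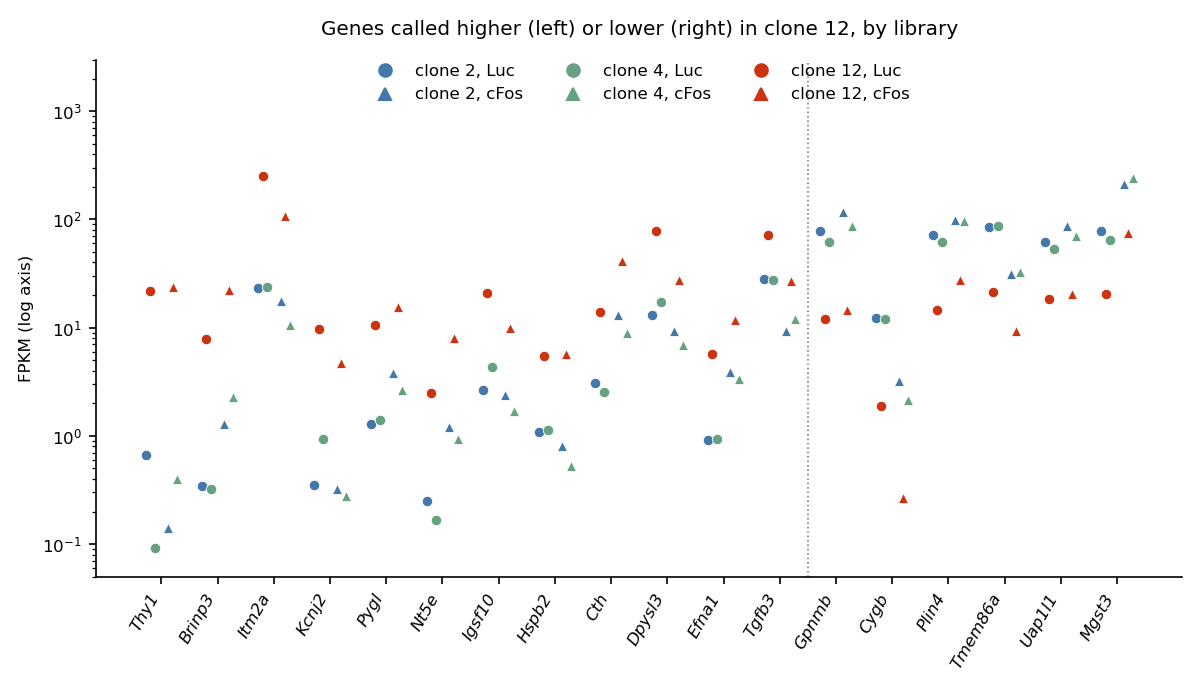
FPKM (log axis) of 12 genes called higher and 6 called lower in clone 12; circles are Luc libraries and triangles cFos libraries, 1 point per library, coloured by clone. By the rule that chose these genes, the clone 12 point of an arm lies outside the points of clones 2 and 4 in every gene. Thy1 is at 21.9 and 23.8 FPKM over at most 0.672, and Gpnmb at 12.0 and 14.4 under at least 62.3.

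Among the genes called lower in clone 12, Gpnmb, a membrane glycoprotein of osteoblasts, melanocytes and macrophages (chromosome 6, 48986517 to 49008181), had the largest fitted difference. It was at 12.0 FPKM against 78.2 and 62.3 in Luc and at 14.4 against 117 and 87.7 in cFos, a log2 difference of -2.63 (SE 0.18, limma adjusted p = 0.0129). The macrophage receptor gene Csf1r was at 0.124 to 0.303 FPKM in the 6 libraries and Adgre1 at no more than 0.00937. Other blood and macrophage markers, Cd14 among them, were expressed enough to be tested, and which cells the Gpnmb transcript came from was not tested. Plin4, a coat protein of lipid droplets (chromosome 17, 56240014 to 56249225), was at 14.7 FPKM against 71.4 and 62.3 in Luc and at 27.6 against 99.5 and 97.2 in cFos. Tmem86a, a lysoplasmalogenase of the endoplasmic reticulum (chromosome 7, 54306010 to 54310146), was at 21.4 FPKM against 84.9 and 86.1 in Luc and at 9.33 against 31.4 and 32.9 in cFos. For both genes the values of clones 2 and 4 in an arm lay close together and clone 12 stood 3.44-fold to 4.55-fold below their mean. Cygb, the globin cytoglobin of fibroblasts (chromosome 11, 116506909 to 116515627), was 6.49-fold lower in Luc and 10.01-fold lower in cFos. Uap1l1, related to the enzyme that makes UDP-N-acetylglucosamine (chromosome 2, 25217012 to 25221146), was 3.11-fold and 3.81-fold lower.

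Mgst3, a microsomal glutathione transferase (chromosome 1, 169302515 to 169323928), was at 20.4 FPKM against 78.1 and 64.3 in Luc and at 75.6 against 213 and 241 in cFos, a log2 difference of -1.67 (SE 0.14, limma adjusted p = 0.0305). Irx2, a homeobox factor of limb and neural patterning (chromosome 13, 72766426 to 72771642), was at 0.0224 FPKM against 2.59 and 2.15 in Luc and at 0.0378 against 3.43 and 2.04 in cFos (adjusted p = 0.0444). Clone 12 thus had almost no Irx2 transcript, but the gene was low in all lines and was not called in any of the 6 fits with a library left out (adjusted p at least 0.0545). The remaining gene called lower has only a clone name.

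Beyond the calls, 76 genes were at least 2-fold higher in clone 12 than in both other clones in both arms (0.658%), and 34 were at least 2-fold lower (0.294%). Igfbp2, which binds insulin-like growth factors, was at 27.5 FPKM against 0.840 and 0.207 in Luc and at 26.8 against 0.657 and 4.18 in cFos. It did not pass the test (log2 difference 4.20, SE 0.62, limma adjusted p = 0.0937), and in cFos clone 4 lay well above clone 2. Postn, the matrix protein periostin, was at 525 FPKM against 129 and 63.1 in Luc and at 206 against 51.5 and 78.0 in cFos (adjusted p = 0.112). Col11a1, a fibrillar collagen of cartilage, was at 50.0 against 5.09 and 5.56 and at 11 against 4.61 and 1.8 (adjusted p = 0.118).

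The stromal markers did not move as a block. Of 13 markers tested, Thy1 and Nt5e were called higher and none lower. In all 4 differences 6 were higher (46.2%, against 14.5% of all tested genes) and 4 were lower (30.8%, against 18.7%). The median was 0.33, or -0.09 without the Luc library of clone 12. Cd44, the hyaluronan receptor, was at 71.4 FPKM against 35.8 and 33.4 in Luc and at 94.1 against 88.6 and 72.4 in cFos. Alcam, an adhesion molecule, was at 16.2 against 0.522 and 2.12 in Luc but at 1.91 against 1.26 and 1.09 in cFos. The markers below both other clones were Eng, Pdgfra, Ly6a and Vim. Eng, the CD105 coreceptor for TGF-beta, was at 0.298 FPKM against 1.08 and 1.28 in Luc and at 0.501 against 2.12 and 1.27 in cFos, so it was low in all 6 libraries. Pdgfra, the platelet-derived growth factor receptor alpha, was at 27.7 against 69.7 and 48.6 and at 69.5 against 127 and 92.0. Ly6a, the Sca-1 antigen, was at 104 against 126 and 252 and at 92.1 against 162 and 134. None of Cd44, Alcam, Eng, Pdgfra and Ly6a passed the test (limma adjusted p between 0.22 and 0.37). Cd34, a progenitor antigen of blood, endothelium and stroma, was at 11.7 FPKM against 0.502 and 0.395 in Luc and at 1.41 against 0.695 and 0.255 in cFos (adjusted p = 0.23).

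The marrow niche list holds factors that support blood formation. Of 20 tested genes, Nt5e, which is also on this list, was called higher. In all 4 differences 3 were higher (15%, near the 14.5% of all tested genes) and 9 were lower (45%, against 18.7%). The median log2 difference was -0.20 and became 0.01 without the Luc library of clone 12. Cxcl12, the chemokine that holds blood progenitors in the marrow, was at 1168 FPKM against 2477 and 2541 in Luc and at 174 against 328 and 645 in cFos. Kitl, the ligand of the Kit receptor, was at 17.1 against 178 and 51.9 and at 33.6 against 61.3 and 71.3. Angpt1, the ligand of the Tek receptor, was at 5.73 against 56.4 and 24.4 and at 2.65 against 5.92 and 6.10. In each of these genes clone 12 was lowest in both arms, and none passed the test (limma adjusted p = 0.18, 0.30 and 0.22).

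The list with the largest share on 1 side was that of the ATF4 response. ATF4 is a transcription factor whose translation rises when the cell lacks amino acids or when its endoplasmic reticulum is stressed, and its targets import and make amino acids, serine and asparagine among them. It binds DNA with C/EBP partners at a composite element. To show what such an element looks like in this list, 60-base stretches around a match in 5 of its genes were read from RefSeq promoter windows of build GRCm38.p6, on the strand of the gene, 5′ to 3′. The capitals mark 1 match a gene to the letters TGATGNAA or, where it is on the other strand, TTNCATCA; the Slc7a11 stretch holds another match, left in lower case, and the Asns stretch runs past the start of the gene. The letters join a half-site of the AP-1 and CRE kind with one of the C/EBP kind, so a match is not particular to ATF4.
Vldlr, chr19:27216794-27216853, plus strand: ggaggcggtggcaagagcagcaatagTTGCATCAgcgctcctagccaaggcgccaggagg
Fgf21, chr7:45615596-45615655, minus strand: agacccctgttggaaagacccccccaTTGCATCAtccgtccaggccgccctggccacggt
Slc7a11, chr3:50443646-50443705, minus strand: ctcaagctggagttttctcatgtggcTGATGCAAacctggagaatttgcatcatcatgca
Asns, chr6:7693199-7693258, minus strand: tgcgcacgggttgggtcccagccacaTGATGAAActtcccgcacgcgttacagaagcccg
Pycr1, chr11:120643818-120643877, minus strand: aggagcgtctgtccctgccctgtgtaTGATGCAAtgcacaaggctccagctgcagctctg
The windows run from 250 bases before to 50 bases after the start of a gene, and the motif was looked for on both strands. It was found in the windows of 10 of the 28 tested genes of the list that have one (35.7%) and in those of 241 of 9173 tested genes (2.63%); over all 32851 windows the share was 3.97%. Since the list was compiled from genes known as ATF4 targets, this share describes the list and not clone 12. Of the 21 genes with a window that were higher in all 4 differences, 8 held the motif (38.1%).

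Of the 30 genes of the ATF4 list, all of them tested, 22 were higher in clone 12 in all 4 differences (73.3%, against 14.5% of all tested genes) and 0 were lower. Their median log2 difference was 0.56, against -0.03 over all tested genes, and the median stayed between 0.42 and 0.75 when the pseudocount, filter, scaling or libraries were changed. No member was called by limma. Of the 30, 20 had an unadjusted p under 0.05, as did 1422 of the 11557 genes in the test. The fit with the replicate block called 1 member (Vldlr), among its 27 higher genes (0.234% of the 11557). Atf4 itself was at 160 FPKM against 134 and 101 in Luc and at 194 against 141 and 134 in cFos (log2 difference 0.48, SE 0.15, limma adjusted p = 0.31). The transcription factor was thus 1.36-fold and 1.41-fold above the mean of the other lines in the 2 arms.

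Among the enzymes of the list, Asns, asparagine synthetase, was at 128 FPKM against 94.8 and 52.2 in Luc and at 180 against 91.0 and 82.0 in cFos. Psat1, an enzyme of serine synthesis, was at 178 against 111 and 78.0 and at 193 against 117 and 110. Mthfd2, the mitochondrial folate enzyme, was at 81.4 against 43.1 and 33.7 and at 101 against 51.4 and 61.2. The other enzymes of serine synthesis, Phgdh and Psph, also lay above both clones in both arms, with log2 differences of 0.76 (SE 0.25) and 0.61 (SE 0.16). Aldh18a1, which starts proline synthesis from glutamate, had 0.77 (SE 0.15), and Gpt2, the mitochondrial alanine aminotransferase, had 1.23 (SE 0.14, limma adjusted p = 0.0535). Among the transporters and receptors, Slc7a11, the cystine-glutamate exchanger that brings in cystine, was at 3.29 FPKM against 1.39 and 1.32 in Luc and at 4.38 against 2.12 and 1.45 in cFos. Vldlr, a lipoprotein receptor, was at 5.92 against 1.47 and 1.55 and at 16.1 against 4.78 and 3.06 (log2 difference 1.81, SE 0.21, limma adjusted p = 0.0535, and 0.0446 with the replicate block). Fgf21, a hormone that stressed cells secrete, was at 1.07 and 1.51 FPKM in clone 12 and at 0.145 or less in the other lines.

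Regulators at the end of the stress response did not all follow. Trib3, a pseudokinase that restrains ATF4, was at 15.7 against 7.90 and 4.68 FPKM in Luc and at 20.3 against 17.2 and 11.9 in cFos. Chac1, which degrades glutathione, was at 14.5 against 7.77 and 6.39 and at 21.4 against 17.8 and 19.4. Ddit3, the factor CHOP that promotes death under lasting stress, was at 45.8 against 53.3 and 30.0 and at 51.6 against 63.4 and 53.2, inside or below the values of the other lines. Atf3, an AP-1-family factor induced by stress, was at 2.58 against 6.06 and 1.84 and at 3.89 against 7.47 and 5.16. Neither Ddit3 (log2 difference 0.01, SE 0.25) nor Atf3 (-0.48, SE 0.42) passed the test. Cth, called higher above, makes cysteine and was not on this list.

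**Figure D2:**
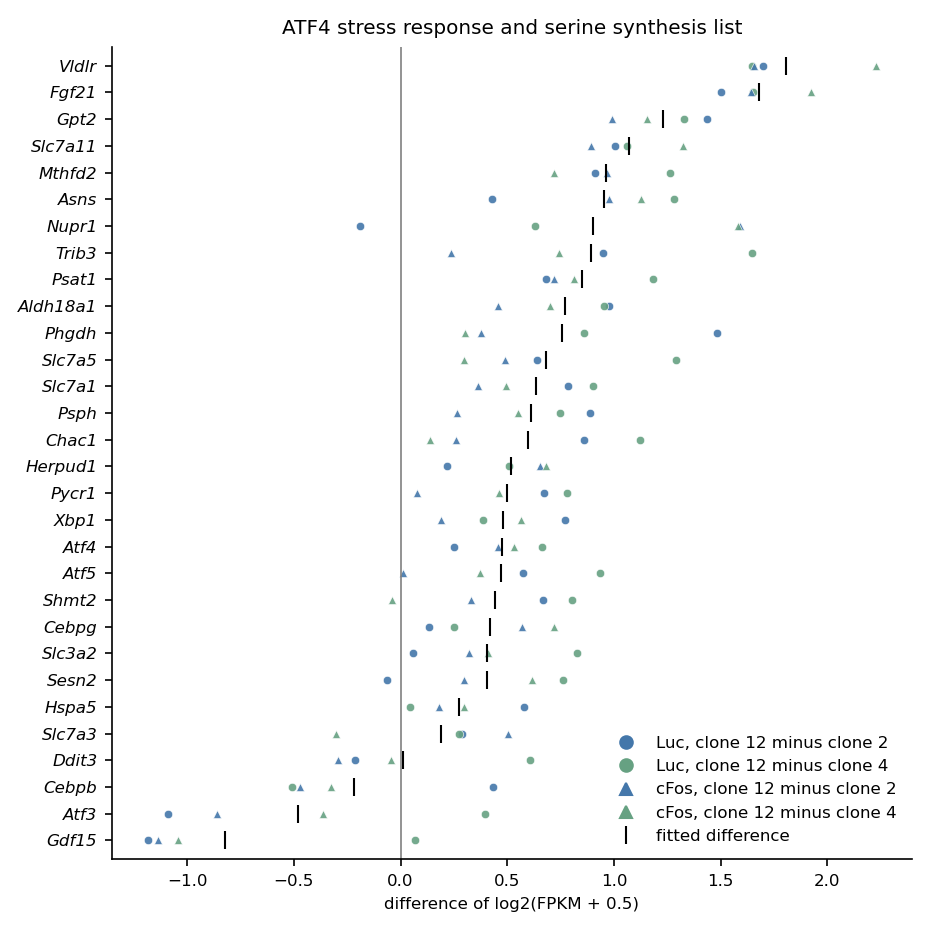
Differences of log2(FPKM + 0.5) between clone 12 and clone 2 (blue) or clone 4 (green), in Luc (circles) and cFos (triangles), for the 30 tested genes of the ATF4 list, ordered by the fitted difference (black bar). For 22 of the 30 genes all 4 points lie right of 0, with Vldlr at the top at 1.81 and Gdf15 at the bottom at -0.82.

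Of 22 tested genes of the adipocyte list, 1 was called lower (Plin4) and 0 higher; 11 were lower in clone 12 in all 4 differences (50.0%, against 18.7% of all tested genes) and 1 was higher (Scd1). The median log2 difference was -0.73, and it stayed between -0.94 and -0.65 when settings or libraries were changed. Lpl, the lipoprotein lipase that releases fatty acids for uptake, was at 12.7 FPKM against 389 and 312 in Luc and at 25.9 against 105 and 81.6 in cFos. It had a log2 difference of -3.27 (SE 0.60, limma adjusted p = 0.135), and the lines stood further apart in Luc than in cFos. Among the regulators, Cebpa, a transcription factor that maintains the fat cell state, was at 7.22 against 38.3 and 24.5 in Luc and at 3.13 against 7.85 and 6.33 in cFos (log2 difference -1.53, SE 0.29, adjusted p = 0.139). Zfp423, a preadipocyte factor, was at 0.432 against 5.61 and 2.67 and at 0.164 against 0.585 and 1.38. Pparg, the nuclear receptor that drives fat cell formation, was at 19.5 against 54.0 and 31.0 in Luc, but its 48.9 in cFos lay between 58.2 and 45.8.

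Pnpla2, the lipase that opens stored triglyceride, was at 3.92 FPKM against 10.8 and 7.29 in Luc and at 5.94 against 12.3 and 14.2 in cFos. Fabp4, a fatty acid carrier of fat cells, was at 30.6 against 37.1 and 265 and at 106 against 174 and 285, and in Luc clones 2 and 4 lay further apart than clone 12 and clone 2. Adipoq, which encodes adiponectin, was at 0.937 against 25.5 and 0.881 in Luc and at 0.275 against 3.47 and 0.363 in cFos, so its level set clone 2 apart and not clone 12. Apart from Plin4, no gene of the list passed the test with or without the replicate block.

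The smooth muscle and myofibroblast list holds genes of the contractile apparatus. Of its 15 tested genes, 9 were higher in clone 12 in all 4 differences (60%, against 14.5% of all tested genes) and 0 were lower. In either direction 0 were called. The median log2 difference was 0.66, or 0.34 without the cFos library of clone 12. Cnn1, calponin, was at 165 FPKM against 47.7 and 36.8 in Luc and at 59.3 against 3.12 and 4.98 in cFos (log2 difference 2.85, SE 0.41, limma adjusted p = 0.0889). Actg2, the enteric smooth muscle actin, was at 560 against 305 and 58.2 and at 123 against 8.94 and 4.92. Acta2, the smooth muscle alpha actin, was at 1615 against 1436 and 1012 in Luc and at 556 against 108 and 161 in cFos. Tagln, transgelin, was at 516 against 493 and 421 and at 158 against 44.5 and 43.4. In every line these 4 genes were lower in cFos than in Luc, and in cFos clone 12 had more of their transcript than clones 2 and 4. No gene of the list passed the test of the difference between the arms.

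**Figure D3:**
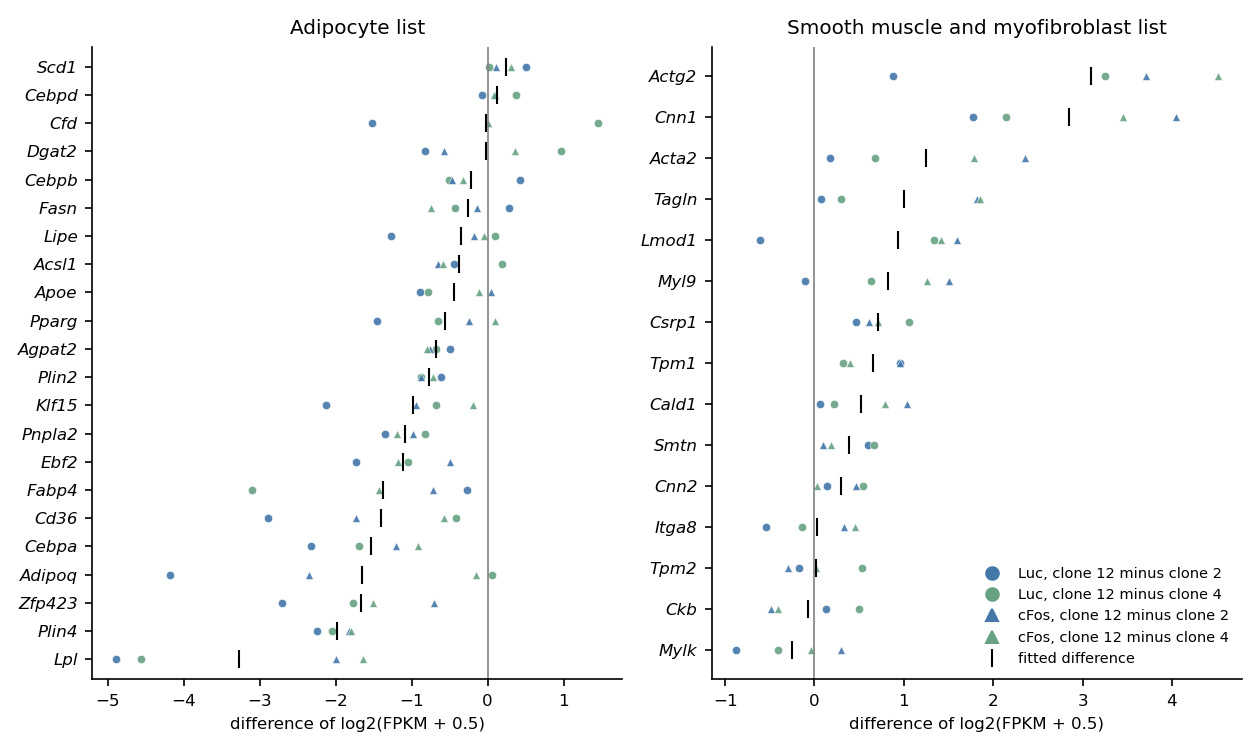
Differences of log2(FPKM + 0.5) between clone 12 and clone 2 (blue) or clone 4 (green), in Luc (circles) and cFos (triangles), for the 22 tested genes of the adipocyte list (left) and the 15 of the smooth muscle and myofibroblast list (right); black bars are fitted differences. Fat genes lie mostly left of 0, down to Lpl at -3.27, and contractile genes mostly right of 0, up to Actg2 at 3.09.

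Small leucine-rich proteoglycans bind collagen fibrils and growth factors. Of 10 tested members, 7 were higher in clone 12 in all 4 differences (70.0%, against 14.5% of all tested genes) and 1 was lower. Without the block 0 were called, and the median log2 difference was 0.92. Fmod, fibromodulin, was at 36.7 FPKM against 6.07 and 2.36 in Luc and at 19.2 against 4.88 and 4.28 in cFos (log2 difference 2.53, SE 0.40, limma adjusted p = 0.103). Aspn, asporin, was at 55.1 against 19.7 and 5.47 and at 28.6 against 11.1 and 6.65. Prelp was at 6.85 against 4.39 and 0.513 and at 6.07 against 3.42 and 0.570, and since its spread lay mainly between clones 2 and 4, its adjusted p fell from 0.429 to 0.0446 with the replicate block. Among the abundant members, Ogn, osteoglycin, was at 450 against 277 and 338 in Luc and at 200 against 102 and 117 in cFos, while Bgn, biglycan, was at 1603 against 1791 and 2361 and at 1453 against 1123 and 1591.

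Cadherins and protocadherins join cells to each other. Of 18 tested genes of the list, 9 were higher in clone 12 in all 4 differences (50.0%, against 14.5% of all tested genes) and 1 was lower. With 0 called, the median log2 difference was 0.57, or 0.19 without the cFos library of clone 12. Cdh11, the cadherin of osteoblasts and stroma, was at 103 FPKM against 26.9 and 41.9 in Luc and at 30.8 against 18.9 and 11 in cFos. Cdh2, N-cadherin, was at 19.7 against 8.30 and 5.16 and at 10.6 against 6.94 and 4.19. Neither passed the test (limma adjusted p = 0.21 for Cdh2 and 0.18 for Cdh11), and Pcdh18, a protocadherin, had a log2 difference of 1.18 (SE 0.15, adjusted p = 0.065). The list does not hold every protocadherin. Pcdhga5, which is not on it, was at 0.448 FPKM against 2.90 and 9.20 in Luc and at 0.277 against 1.08 and 6.96 in cFos. By contrast, Pcdhga3, Pcdhga4, Pcdhb15 and Pcdhb21 were at least 2-fold higher in all 4 differences. The positions of Pcdhga3, Pcdhga4 and Pcdhga5 overlap on chromosome 18, so the split of reads between them is uncertain.

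In the TGF-beta and BMP list, 1 of 42 tested genes was called higher (Tgfb3, above) and 0 lower. In all 4 differences 11 were higher (26.2%, against 14.5% of all tested genes) and 5 were lower (11.9%, under the 18.7% of all tested genes). The median was 0.16, or 0.10 without the cFos library of clone 2. Among the other ligands, Bmp4 was at 75.8 FPKM against 23.1 and 33.7 in Luc and at 37.8 against 10.7 and 10.1 in cFos (log2 difference 1.62, SE 0.19, limma adjusted p = 0.0535, and 0.0459 with the replicate block). Inhba, which encodes the activin A subunit, was at 34.7 against 11.6 and 20.3 and at 77.4 against 15.8 and 28.1 (adjusted p = 0.183). Chrdl1, a secreted BMP inhibitor, was lowest in clone 12, at 2.15 against 3.88 and 5.16 in Luc and at 3.19 against 28.1 and 10.2 in cFos. The ligand genes Tgfb3, Bmp4 and Inhba thus had their highest levels in clone 12 in each arm.

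Patterning transcription factors, which keep a memory of the site of origin, also differed by member. Of 40 tested, Irx2 was called lower and 0 higher. In all 4 differences 11 were higher (27.5%, against 14.5% of all tested genes) and 5 were lower (12.5%, under the 18.7% of all tested genes). The median was 0.32, or 0.03 without the Luc library of clone 12. Foxd1 was at 2.64 FPKM against 0.494 and 0.250 in Luc and at 1.32 against 0.0290 and 0.0313 in cFos. Tbx15, a T-box factor of limb and skull mesenchyme, was at 61.6 against 32.2 and 12.8 and at 55.3 against 19.8 and 13.0 (limma adjusted p = 0.183, and 0.0446 with the replicate block). Foxd1 and Tbx15 were thus both highest in clone 12 in each arm.

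Class I histocompatibility molecules present peptides from inside the cell to T cells. Of 26 tested genes of the class I list, 12 were lower in all 4 differences (46.2%, against 18.7% of all tested genes) and 0 were higher. With 0 called, the median was -0.46, or -0.16 without the Luc library of clone 12. H2-K1, a class I heavy chain, was at 136 FPKM against 516 and 511 in Luc and at 34.9 against 41.0 and 51.9 in cFos. B2m, the light chain, was at 1407 against 3484 and 2834 and at 702 against 853 and 708. Tap2, which carries peptides into the endoplasmic reticulum, was at 14.4 against 26.6 and 30.0 and at 7.09 against 20.2 and 18.9 (log2 difference -1.18, SE 0.16, limma adjusted p = 0.0752). Psmb8, a subunit of the immunoproteasome, was at 24.7 against 76.5 and 68.2 and at 5.14 against 9.29 and 10.6 (adjusted p = 0.0960). Class I genes are nearly identical to each other in sequence, so the split of reads between the H2 genes is uncertain.

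Of 46 tested genes of the interferon response list, 9 were lower in all 4 differences (19.6%, near the 18.7% of all tested genes) and 0 higher, with 0 called. Its median difference was -1.67 against clone 2 and -0.67 against clone 4 in Luc, but 0.21 and 0.12 in cFos; this difference between the arms was not tested. Trim30a, a member of the list, was at 6.79 FPKM against 55.4 and 23.3 in Luc and at 0.444 against 0.838 and 0.869 in cFos. The Luc library of clone 2 was the highest of the 6 for this gene, and without the Luc library of clone 12 the median of the list was 0.23 in place of -0.50. Lgals3bp, a secreted glycoprotein induced by interferon, was lower in both arms, at 170 against 396 and 337 and at 41.7 against 79.3 and 65.6.

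Glutathione and detoxification genes, many of them targets of the transcription factor NRF2, remove reactive compounds and peroxides. Of 41 tested, 1 was called lower (Mgst3) and 0 higher. In all 4 differences 16 were lower (39.0%, against 18.7% of all tested genes) and 3 were higher, with a median of -0.28. Mgst1, the other abundant microsomal transferase, was at 58.6 FPKM against 362 and 207 in Luc and at 57.6 against 127 and 101 in cFos (log2 difference -1.59, SE 0.35, limma adjusted p = 0.179). Gpx3, a secreted glutathione peroxidase, was at 3.45 against 25.9 and 126 and at 0.949 against 1.21 and 4.85. Gpx4, which reduces lipid peroxides, was at 238 against 291 and 296 and at 196 against 246 and 289, a small difference (-0.37, SE 0.13). Hmox1, heme oxygenase and a textbook NRF2 target, was at 86.2 against 123 and 128 and at 59.9 against 79.0 and 84.1. On the other side stood Slc7a11, described above, and Gstm4, a cytosolic transferase, at 7.95 against 3.22 and 1.69 in Luc and at 7.82 against 1.83 and 1.75 in cFos. Gstm genes are close copies of each other, so their shares of reads are uncertain.

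Of 38 tested genes of the p53 pathway, 13 were higher in all 4 differences (34.2%, against 14.5% of all tested genes) and 4 lower. With 0 called, the median was 0.18. All lines lack p53. Cdkn1a, the cell cycle inhibitor p21, was at 3.89 FPKM against 2.55 and 1.06 in Luc and at 15.5 against 10.2 and 5.27 in cFos. Ddit4, an inhibitor of mTOR signalling, was at 21.5 against 8.36 and 14.5 and at 29.7 against 12.8 and 12.3. Bax, which promotes apoptosis, was at 37.0 against 52.8 and 40.9 and at 30.7 against 43.0 and 37.1. None of these 3 passed the test (limma adjusted p between 0.17 and 0.44).

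**Figure D4:**
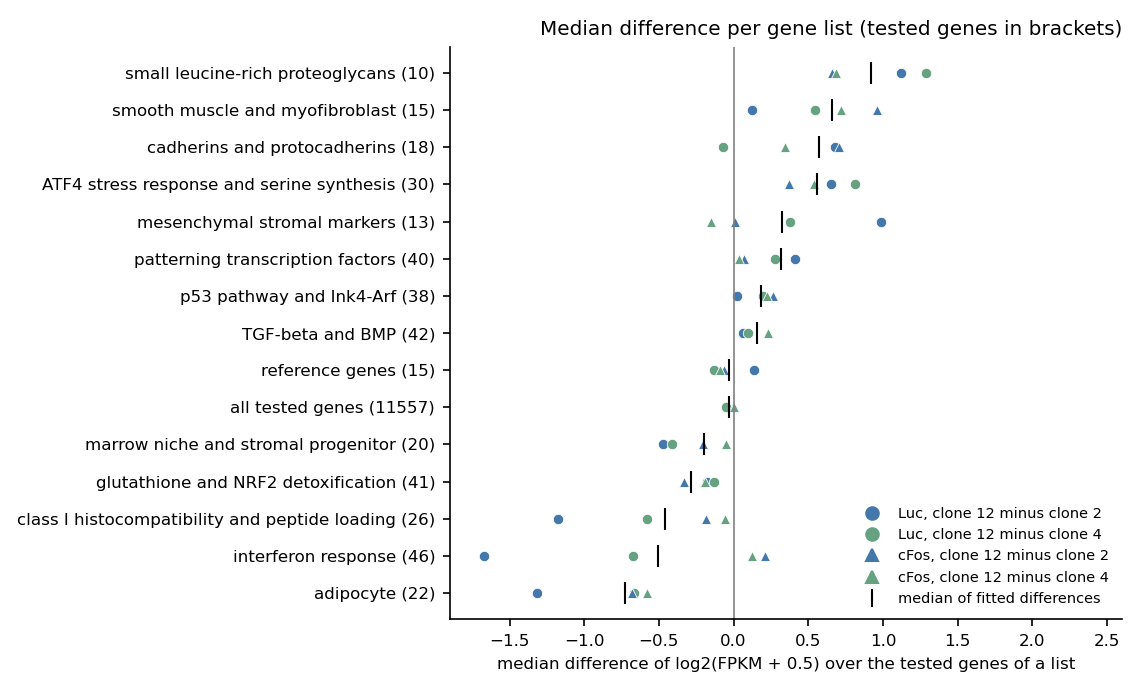
Median difference of log2(FPKM + 0.5) between clone 12 and clone 2 (blue) or clone 4 (green), in Luc (circles) and cFos (triangles), over the tested genes of each list of at least 10 tested genes described in the text; black bars are medians of the fitted differences. Proteoglycan, contractile and ATF4 lists lie right of 0 in all 4 medians and the adipocyte list left of 0, while the interferon list runs from -1.67 to 0.21.

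Where in the genome the differences lie was described by chromosome, with the positions of the files in mm9. On chromosome 3, 317 of 571 tested genes were higher in clone 12 in all 4 differences (55.5%, against 14.5% of all tested genes) and 14 were lower. The fitted difference was above 0 for 490 of the 571 (85.8%), against 45.0% of all tested genes. The median over the chromosome was 0.33, made up of 0.62 against clone 2 and 0.21 against clone 4 in Luc and of 0.19 and 0.33 in cFos. The shift ran along the whole chromosome: in each of 8 stretches of 20 Mb the median was above 0, from 0.25 between 80 and 100 Mb to 0.53 between 40 and 60 Mb, and the share of genes higher in all 4 differences was 45.3% to 72.3%. The longest row of neighbouring tested genes with all 4 differences above 0 had 13 genes, from Wwtr1 to Dhx36 (57259566 to 62310910), with fitted differences of 0.27 to 2.25 and Igsf10 among them. Wwtr1, the Hippo pathway coactivator TAZ, was at 27.7 FPKM against 18.7 and 22 in Luc and at 37.5 against 26.1 and 22.7 in cFos, and Dhx36, an RNA helicase, at 23.8 against 14.6 and 18.2 and at 27.1 against 18.1 and 17.5. Of the 14 genes called higher among all 11557, Igsf10, Cth and Efna1 are on chromosome 3, so 3 of its 571 tested genes were called. Chromosome 9, with a median of -0.098, also had 3 called higher of 661 tested, Thy1, Nt5e and Hspb2.

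No other chromosome with more than 4 tested genes had a median further from 0 than 0.20. Chromosome 12 had a median of 0.20, but clone 12 was above clone 2 (0.37 and 0.52) and not above clone 4 in Luc (-0.18), and clone 4 itself was 0.56 and 0.52 above clone 2. On chromosome 3, clone 4 was 0.41 above clone 2 in Luc and 0.14 below it in cFos. Chromosome 14 had 123 of 393 genes higher in all 4 differences (31.3%) with a median of 0.13, and chromosome 1 had 192 of 654 (29.4%) with 0.09. The longest row of neighbours that were all lower had 8 genes, from Mpi to Ubl7 on chromosome 9 (57392075 to 57777775), with a median of -0.45. Copy number was not measured, and its part in these shifts was not tested.

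**Figure D5:**
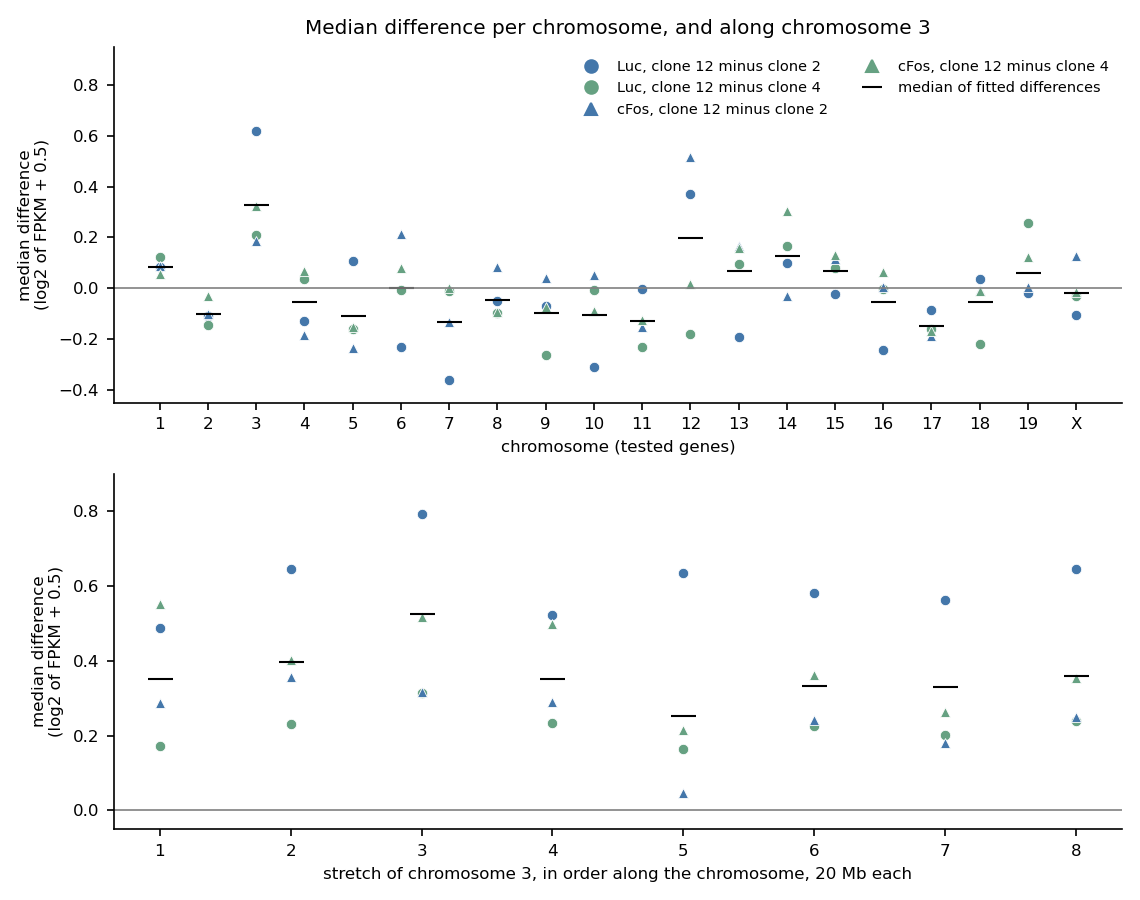
Median difference of log2(FPKM + 0.5) of clone 12 from clone 2 (blue) or clone 4 (green), in Luc (circles) and cFos (triangles), per chromosome (top) and along chromosome 3 in 8 stretches (bottom); black bars are medians of the fitted differences. Chromosome 3 has the highest black bar, 0.33, and all points of its 8 stretches lie above 0.

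Whether clone 12 differed from the others by arm was tested with an interaction term. It called 2 of 11557 genes (0.0173%), both of them microRNA genes. An unadjusted p under 0.05 was found for 322 of the 11557, a smaller share than the 0.05 that chance alone would give on average. Mir3082 was at 3807 and 7956 FPKM in the Luc libraries of clones 2 and 4 and listed at 0 in the other 4 libraries (limma adjusted p = 0.0300). Mir27a was at 569 and 1091 FPKM in the cFos libraries of clones 2 and 4 and listed at 0 elsewhere (adjusted p = 0.0364). FPKM of such short transcripts rests on few fragments in a library of polyadenylated RNA, and with small RNA genes left out of the fit, an alternative chosen after seeing the data, 0 genes were called. Capn6, a calpain-like protein without protease activity, was at 45.4 FPKM in the Luc library of clone 12 against 5.82 and 5.67, and at 88.2 against 68.0 and 82.8 in cFos (interaction -2.65 on the log2 scale, adjusted p = 0.580). Cthrc1, a secreted collagen regulator, was at 27.1 against 1.70 and 1.26 in Luc and at 68.2 against 22.8 and 24 in cFos. Selenop, a secreted selenium carrier, was at 28.7 against 327 and 308 in Luc and at 20.3 against 56.9 and 71.1 in cFos. In these 3 genes the lines differed more in Luc than in cFos, and none passed the test of that difference. Other genes near them in rank had other patterns and did not pass either. Atp6v0c was at 195 FPKM against 170 and 223 in Luc and at 44.9 against 193 and 240 in cFos. Emb was at 16.6 against 27.3 and 32.7 in Luc and at 11.6 against 4.40 and 5.165 in cFos. Nlrp2 was at 1.26 against 0.0904 and 0.0294 in Luc and at 31.9 against 76.35 and 57.1 in cFos.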

How the data were processed

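Polyadenylated RNA of 8 cultures was sequenced, and the 6 libraries of clones 2, 4 and 12 were compared. Per the submitters' processing notes, the authors used CASAVA 1.8.2, TopHat and Cufflinks with mouse build mm9; other versions, the options and the use of strand are not stated there. The deposited FPKM values are 1 per RefSeq transcript and library, per the file headers, with no recorded scaling between libraries. The deposited coverage, a signal of mean read depth per base per the file headers, was multiplied by transcript length to give the bases on transcripts, the depth measure used here; fragment counts were not analysed.

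Transcripts were named by RefSeq (30227 of 30769 entries) or GENCODE M21 (180), and 362 entries, with 0.828% of FPKM, kept their accession. FPKM was summed per symbol. Reads shared by overlapping genes or close copies cannot be told apart. A gene was tested where 2 or more of the 6 libraries reached 1 FPKM. The log2(FPKM + 0.5) of the authors' values was fitted with limma 3.58.1 under R 4.3.3, by lmFit and a trended eBayes, with arm and clone 12 as terms, 3 residual degrees of freedom, two-sided tests and Benjamini-Hochberg adjustment over all genes tested. A fold change on this scale understates that of low genes. Interaction and single-clone fits were made likewise, with 2 residual degrees of freedom for the interaction. Python 3.11.15, pandas 2.3.3, numpy 2.4.6 and matplotlib 3.10.9 did the rest. The scripts were tested on simulated data.

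The libraries with the same clone number come from the same line, so the number pairs them. Deviations from the arm mean correlated at 0.270, 0.498 and 0.418 between the Luc and cFos libraries of clones 2, 4 and 12, and at -0.389 to -0.0361 between different clones.

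The comparison, members and lists were chosen with earlier results of these data known. Named genes were up to 12 per direction with the largest log2 difference among called genes that lay beyond both clones in both arms and had a mean of at least 5 FPKM in the higher group, without predicted, accession-only and small RNA genes, plus called list members, or 1 or 2 members where none was called, Fos, Sox9 and Trp53, the leading interaction genes and members of the longest runs. Further list members, and Igfbp2, Postn, Col11a1, Cd34, Csf1r, Krt19 and Scn3a, were chosen after their values were seen. Alternatives covered the pseudocount, filter, scaling, prior, block, clone 8 and each library left out. A few genes of the lists are not reported here.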

Additional observations from a re-analysis of the deposited data

Results flagged for a closer look

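In the 4 libraries of clones 2 and 4, 1 library stood apart for 5 of the 107 genes checked: its gap to the nearest value, as a share of the range, was above the critical value of Dixon's test, which chance passes in about 1 of 20 groups. The Luc library of clone 4 was the high one for Kcnj2 (0.853) and the low one for Psat1 (0.839) and Atf4 (0.846). For Gstm4 the Luc library of clone 2 was high (0.889), and for Gpx4 the cFos library of clone 2 was low (0.876).

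The distance of clone 12 from the other lines differed between the arms for the microRNA genes Mir27a (interaction -10.62 on the log2 scale, limma adjusted p = 0.0364) and Mir3082 (13.43, adjusted p = 0.0300), each of them at 0 in 4 libraries. The median of the interferon response list was -1.67 against clone 2 in Luc and of the opposite sign in cFos; the difference between the arms was not tested for the list.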

How the results depend on the processing

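The 14 genes higher and 8 lower in clone 12 became 4 higher with a pseudocount of 0.1, 0 and 0 with no filter on low values, 24 higher with no mean-variance trend, 5 lower with all 8 libraries in the fit, and 27 and 16 with the clone as a replicate block, which pairs the libraries of a line. With 1 library left out, the counts ran from 0 to 36 higher and from 0 to 20 lower; a lone clone 12 library was then assumed to vary like the others. The 2 genes of the interaction became 1 with a pseudocount of 1, 14 with no filter, 0 with no trend and 0 with small RNA genes left out, the last chosen after seeing the data. The cause was not tested. Under the 12 settings that keep all libraries, the 20 called genes named kept their call in 188 results and lost it in 44, and with 1 library left out in 24 and 96. Signs turned with 1 library left out for 4 genes that were not called. The log2 difference of Ddit3 ran from -0.19 (without Luc clone 4) to 0.20 (without cFos clone 12), and was also below 0, at -0.014 and -0.17, without cFos clone 4 and Luc clone 12. Bgn ran from -0.36 to 0.12 and Col1a1 from -0.087 to 1.30, both turning without Luc clone 12. Trp53 ran from -0.061 to 0.079, with -0.019 and -0.053 among its values below 0. Clone 12 gave 2 libraries of 1 line, which limits the differences that can be detected, and low FPKM rests on few fragments.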

Other observations

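Clone 8, which entered no comparison, did not share most of the calls that set clone 12 apart. Of the 12 genes named as higher in clone 12, clone 8 was above clones 2 and 4 in both arms for 2, Pygl (1.75 FPKM in Luc and 4.15 in cFos) and Efna1 (5.98 and 5.35), below both for 6 and mixed for 4. Thy1 was at 0.597 FPKM in the Luc library of clone 8 and at 15.9 in its cFos library. Of the 6 genes named as lower in clone 12, clone 8 was above both clones for 3 and below both for 2, among them Gpnmb at 8.32 and 56.1 FPKM. Lpl was at 1171 FPKM in Luc and 226 in cFos of clone 8, above clones 2 and 4 where clone 12 lay below them. On chromosome 3, 199 of 571 tested genes were higher in clone 8 than in clones 2 and 4 in both arms (34.9%, against 14.5% of all tested genes), with medians of 0.55 and 0.13 against clones 2 and 4 in Luc and 0.05 and 0.20 in cFos. These values have no test and share the libraries of clones 2 and 4 with the comparison of clone 12.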
